A study of Homo sapiens with 6 samples.

Results

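The proteasome genes were taken as every row of the deposited count table whose symbol matched PSM followed by a letter from A to G and a number. This gave 48 of 60591 rows. The line was the triple-negative breast cancer line MDA-MB-231, as a variant that homes to bone, and its RNA was sequenced after no flow (static, 0 mL/min), low flow (1 mL/min) or high flow (15 mL/min), with 2 libraries per condition. All 3 conditions used the same line, and the design text presents the flow as a stand-in for fluid movement in mechanically loaded bone. The sources used here do not give the time under flow. They also do not say that the 2 libraries of a condition were grown apart, so the p-values rest on a spread between libraries that may be technical.

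The labels call the cells endothelial cancer cells. The endothelial genes CDH5, VWF and CLDN5 reached at most 0.0869, 0.221 and 0.0234 CPM (counts scaled to library size) in any library, while the breast epithelial keratins KRT8 and KRT18 were at 127 to 190 CPM and 164 to 237 CPM. All 8 epithelial and basal breast cancer markers passed 1 CPM, the lowest being KRT7 at 2.66 to 4.8 CPM and EPCAM at 2.69 to 4.26 CPM. 4 of the 8 endothelial markers passed 1 CPM in at least 1 library, the highest being TIE1 at 29.9 to 44.2 CPM. The summed level of all 8 was 87.5 and 65.2 CPM in static, 82.1 and 95.4 CPM in low flow and 94.7 and 91.3 CPM in high flow. Of the 5 leukocyte markers, CD68 was at 258 to 339 CPM, and the others stayed under 1 CPM, PTPRC, the pan-leukocyte marker, at 0.169 CPM at most. The library totals ran from 17822642 to 23544307 counts in static, from 45174328 to 47067620 in low flow and from 43965176 to 53279537 in high flow. By the column headers, lane 2 held static and low flow and lane 1 held high flow, so lane and high flow cannot be told apart. In bulk RNA, fewer cells of a type and less RNA per cell cannot be told apart either.

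The proteasome is the protease that degrades ubiquitin-tagged proteins. Its barrel-shaped core particle (20S) is built from rings of alpha subunits (PSMA) around rings of beta subunits (PSMB), of which PSMB5, PSMB6 and PSMB7 cut the substrate. A regulatory particle (19S) of ATPases (PSMC) and non-ATPases (PSMD) caps the core, recognises ubiquitin, unfolds the substrate and feeds it in. The PSMG chaperones assemble the core, and PSMD5, PSMD9 and PSMD10 assist assembly of the regulatory particle. Interferon-responsive cells replace the catalytic subunits by PSMB8, PSMB9 and PSMB10 to form the immunoproteasome, which favours peptides for antigen presentation. PSME1 to PSME4 are alternative activators and PSMF1 is an inhibitor.

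Of the 48 genes, 46 passed the filter on low counts and were tested. PSMA8, the testis-type alpha subunit, had 0 counts in every library. PSMB11, the thymus-type catalytic subunit, had 3 counts in static replicate 1 and 0 in the others. Levels compared between genes were divided by the length of the principal transcript. On this scale PSMB4, a beta-ring subunit, was highest at a mean of 198 CPM per kb over the 6 libraries and the alpha subunit PSMA7 was next at 146 CPM per kb. The lowest of the tested genes was the assembly chaperone PSMG4 at 13.7 CPM per kb, close to PSMG3 at 14.1, PSMD5 at 14.1 and PSMG1 at 14.2 CPM per kb. When all annotated exons were used as the length, PSMB4 stayed highest at 88.4 CPM per kb and PSMG4 lowest at 1.11 CPM per kb.

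Few proteasome genes passed the threshold of the test under flow. With 2 libraries per condition, a gene that did not pass is not thereby shown to be unchanged. PSMG4 fell in both flow conditions, PSMB10 rose in high flow, and PSMD12, a lid subunit of the regulatory particle, fell in high flow. The test was the quasi-likelihood test of edgeR over all 20676 genes that passed the filter, two-sided, with Benjamini-Hochberg adjustment and a threshold of 0.05. In low flow against static, 1 of 46 members was called, or 2.17%, where 6.74% of all tested genes were called. By direction, 0 members rose, where 3.25% of all tested genes did, and 1 fell, where 3.49% did. In high flow against static, 3 of 46 were called, or 6.52%, where 13.9% of all tested genes were called. Of these 1 rose, where 7.49% of all tested genes did, and 2 fell, where 6.43% did. In high flow against low flow, 0 of 46 were called, where 0.334% of all tested genes were called, 0.242% as higher and 0.0919% as lower. DESeq2 also called 0 there, and 1 member, PSMD2, had an unadjusted p under 0.05, or 2.17% against 9.62% of all tested genes.

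The shifts were small, and more members had negative than positive values against static. The median log2 fold change of the 46 members was -0.08 in low flow against static, with 37 negative and 9 positive values, where the median over all tested genes was 0.01. In high flow against static it was -0.09, with 34 negative and 12 positive values, where the median over all tested genes was 0.00. With offsets for transcript length and GC content the split was 28 negative and 18 positive in low flow (median -0.041) and 24 negative and 22 positive in high flow (median -0.025). In 22 of 46 members, or 47.8%, both low flow libraries lay below both static libraries, a pattern that 26.3% of all tested genes showed. The same count, 22 of 46 or 47.8%, held for high flow, against 29.4% of all tested genes. Both flow libraries lay above both static libraries in 3 members in low flow, or 6.52% against 27.1% of all tested genes, and in 4 members in high flow, or 8.7% against 29.9%. A set of 10277 tested genes had a mean CPM at or above that of the lowest tested member. Of these, 3092 lay below in low flow and 3383 in high flow, while 3034 and 3331 lay above. The 2 comparisons share the static libraries.

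**Figure D1:**
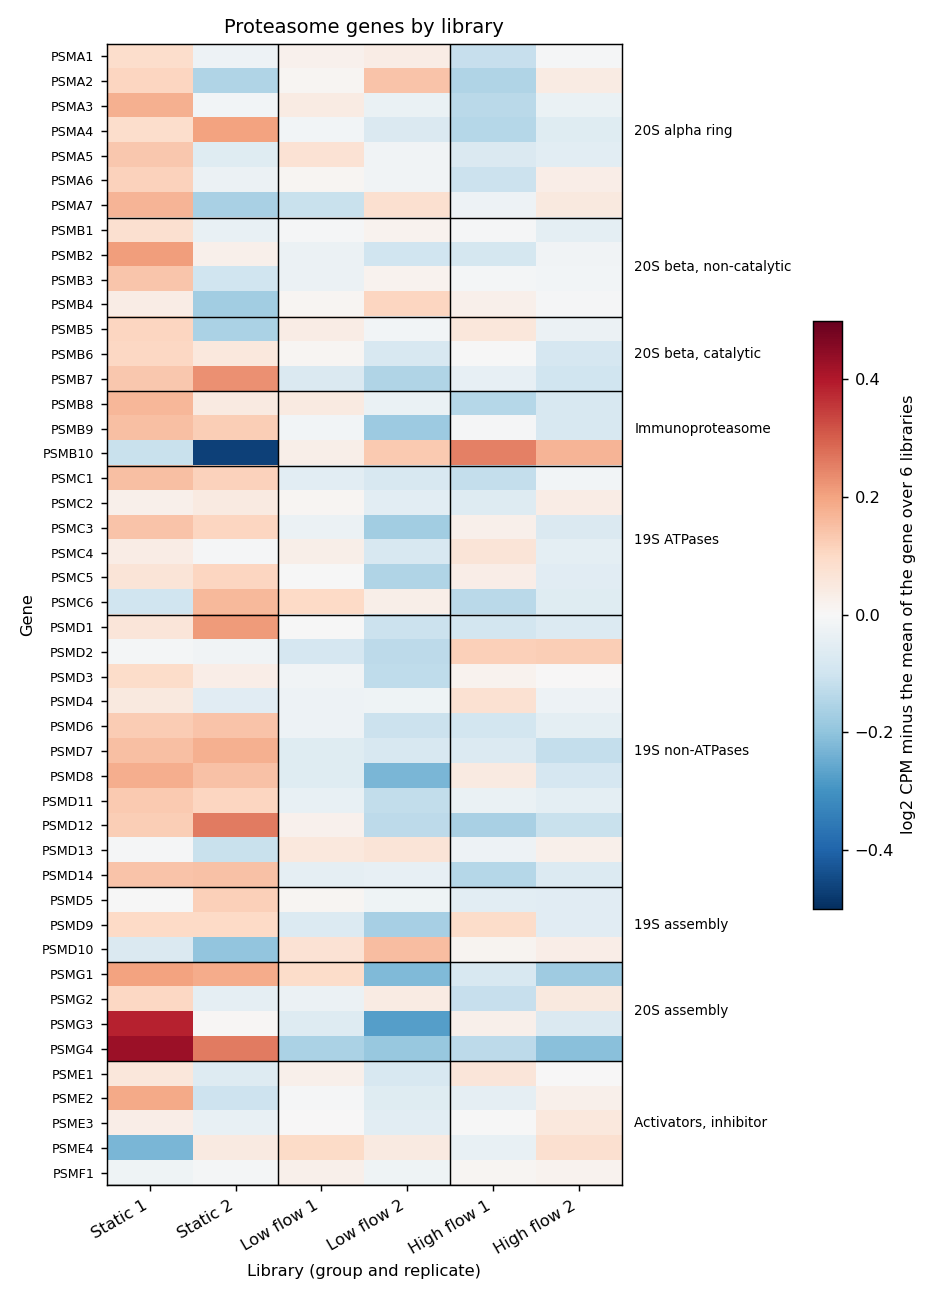
Level of each of the 46 tested proteasome genes in each library (columns), as log2 CPM minus the mean of that gene over the 6 libraries (colour), with genes in rows by role. The regulatory particle rows are mostly red in both static libraries, the 20S rows mostly in static replicate 1, and PSMB10 runs the other way.

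The spread between the static libraries bears on these shifts. Among the 14 constitutive 20S genes, 12 were higher in static replicate 1 than in static replicate 2, by a median of 0.19 on the log2 scale. Among the 17 regulatory particle subunits the median difference between the same libraries was 0.01. Over all members, the gap between the static libraries was larger than the low flow effect in 21 of 46 and larger than the high flow effect in 23 of 46. The share of all tested genes with such a gap was not computed. The median absolute gap between the static libraries was 0.114 on the log2 scale in the members and 0.161 over all tested genes.

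The 20S core showed no gene past the threshold in any comparison. The median log2 fold change of its 14 constitutive subunits was -0.02 in low flow and -0.09 in high flow against static. The sign rested on the libraries and the scaling. Without static replicate 1 the low flow median was 0.05 and the high flow median -0.00. With offsets for transcript length and GC content they were 0.04 and 0.06. Both flow libraries lay below both static libraries in 4 of 14 subunits in low flow, where 26.3% of all tested genes did, and in 5 of 14 in high flow, where 29.4% did. The summed level of the 14 was 1525 and 1376 CPM in static, 1397 and 1408 CPM in low flow, and 1359 and 1385 CPM in high flow. Static replicate 1 alone lay above the other 5 libraries, which ran from 1359 to 1408 CPM.

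Among the catalytic subunits, PSMB7, which carries the trypsin-like activity, had 141 and 151 CPM in static, 123 and 116 CPM in low flow and 125 and 120 CPM in high flow. All 4 flow libraries lay below both static libraries. Its log2 fold change was -0.29 (SE 0.0942, adjusted p = 0.0679) in low flow and -0.25 (SE 0.0941, adjusted p = 0.0805) in high flow, which did not pass the threshold, and DESeq2 alone called it in low flow, at an adjusted p of 0.035. PSMB5, which carries the chymotrypsin-like activity, had 99.8 and 82.9 CPM in static, 94.96 and 91.7 CPM in low flow and 96.4 and 90.6 CPM in high flow, so that the flow libraries lay between the static ones. Its log2 fold change was 0.03 with a 95% confidence interval of -0.19 to 0.25 in low flow and 0.04 with an interval of -0.18 to 0.25 in high flow. PSMB6, which carries the caspase-like activity, had 92.7 and 89.6 CPM in static, 87.0 and 81.8 CPM in low flow and 86.2 and 81.6 CPM in high flow, with log2 fold changes of -0.11 in low flow and -0.12 in high flow (adjusted p = 0.52 and 0.425). PSMB4, the subunit with the highest level per length, had 195 and 169 CPM in static, 192 and 205 CPM in low flow and 194 and 190 CPM in high flow, with overlapping groups.

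The 3 immunoproteasome subunits did not move together. PSMB10, the counterpart of PSMB7, is on chromosome 16 (GRCh38, 67934502 to 67937087, minus strand). It had 36.2 and 28.3 CPM in static, 39.9 and 42.8 CPM in low flow and 46.5 and 44.0 CPM in high flow, from 651 to 2342 counts per library. All 4 flow libraries lay above both static libraries, and both high flow libraries lay above both low flow libraries. PSMB10 rose in high flow by 0.49 on the log2 scale (SE 0.117, adjusted p = 0.0103), or 1.41-fold. In low flow the log2 fold change was 0.36 (SE 0.117, adjusted p = 0.0668), and between high and low flow it was 0.13 (adjusted p = 0.753). The high flow call was lost without high flow replicate 1 (adjusted p = 0.132), high flow replicate 2 (0.0576) or static replicate 2 (0.163), and without static replicate 2 the log2 fold change was 0.33. The low flow value passed the threshold without static replicate 1 (adjusted p = 0.0315, log2 fold change 0.55), without low flow replicate 1 (0.0271), with no expression filter (0.0128) and with length and GC offsets (0.0227).

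PSMB8, the counterpart of PSMB5, had 50.005 and 45.9 CPM in static, 45.99 and 43.5 CPM in low flow and 40.3 and 42.1 CPM in high flow, with log2 fold changes of -0.10 in low flow and -0.22 in high flow (adjusted p = 0.593 and 0.157). PSMB9, the counterpart of PSMB6, had 29.6 and 29.0 CPM in static, 26.4 and 23.5 CPM in low flow and 26.6 and 25.2 CPM in high flow, with log2 fold changes of -0.23 in low flow and -0.18 in high flow (adjusted p = 0.21 and 0.289). The flow libraries of PSMB9 all lay below the static ones, the opposite side from PSMB10. PSMB8 and PSMB9 are neighbours on chromosome 6 and share 139 exon bases on opposite strands. PSMB8-AS1 shares 618 exon bases with PSMB8 on the opposite strand and 174 with PSMB9 on the same strand. It was counted at 0.282 to 0.346 of the PSMB9 count, and reads of the shared bases may be counted for both genes.

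**Figure D2:**
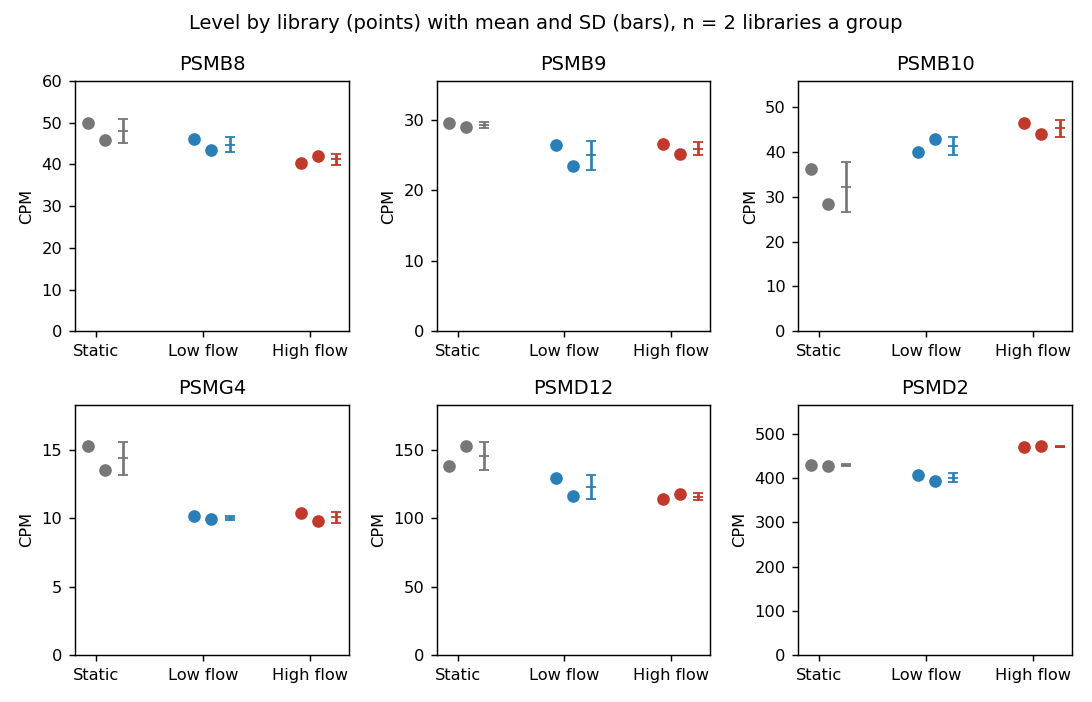
CPM of 6 proteasome genes in each library (points, 2 per condition) with the mean and SD beside them, in the order static, low flow and high flow. PSMB10 is higher and PSMG4 lower in all 4 flow libraries, while PSMD2 is higher in high flow than in both other conditions.

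Set against the constitutive subunit that it replaces, per length, PSMB10 stood at 0.206 and 0.151 of PSMB7 in static, 0.262 and 0.297 in low flow and 0.299 and 0.295 in high flow. The difference of this ratio from static was 0.66 on the log2 scale in low flow and 0.75 in high flow. PSMB8 stood at 0.577 and 0.638 of PSMB5 in static, 0.558 and 0.546 in low flow and 0.481 and 0.535 in high flow. PSMB9 stood at 0.348 and 0.353 of PSMB6 in static, 0.331 and 0.313 in low flow and 0.336 and 0.337 in high flow. Thus the PSMB10 ratio was higher and the other ratios were lower in every flow library than in every static library. An exact permutation test of 2 against 2 libraries cannot go below p = 0.333, so these ratios were not tested.

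**Figure D3:**
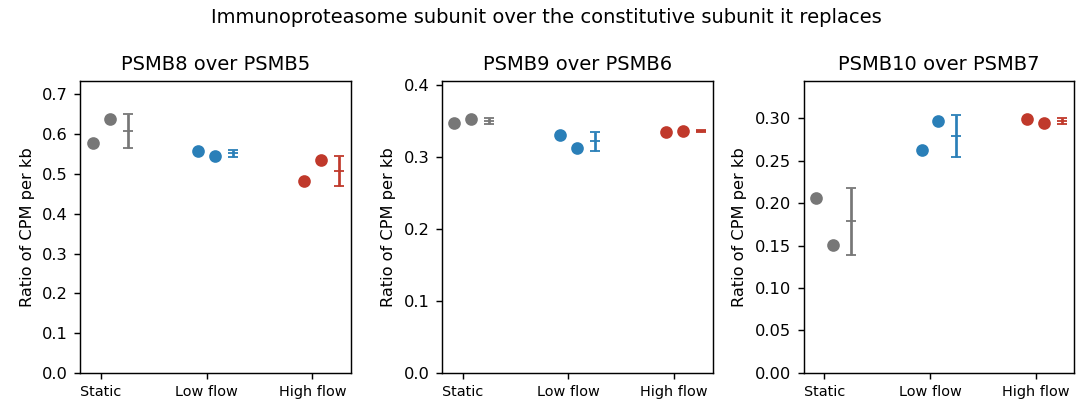
Ratio of each immunoproteasome subunit to the constitutive subunit that it replaces, in CPM per kb of transcript, per library (points) with the mean and SD, n = 2 libraries in each of static, low flow and high flow. Of the 3 ratios, only PSMB10 over PSMB7 is higher under flow, at 0.262 to 0.299 against 0.151 to 0.206 in static.

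PSMB10 shares 644 exon bases on the same strand with AC040162.1, an annotated readthrough gene that also runs through CTRL. AC040162.1 was counted at 0.605 to 0.677 of the PSMB10 count in the 6 libraries, and reads of the shared exons may be counted in both rows. Its log2 fold change in high flow against static was 0.53 (adjusted p = 0.0126). PSMA1, PSMA2, PSMA6 and PSMD9 have a same-strand partner of this kind, counted at 0.875 to 1.27 of the member's count, and the values of all 5 genes are therefore uncertain.

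A promoter window was available for 42 of the 48 genes in the RefSeq tables (GRCh38.p14). The 250 bases before each start were searched on both strands for the core of the interferon-stimulated response element, GAAA, any 2 bases and GAAA again. It was found in 5 genes, or in 9.8% of the 51 windows of these genes, where 3.02% of all 35116 windows held it. The following 30-base stretches, 5′ to 3′ on the strand of the gene with the match in capitals, are given because the 3 that carry the identical letters belong to genes whose RNA differed in direction here.
PSMB10: gggtaaaggcGAAAGCGAAAgcaggaagta
PSMG4: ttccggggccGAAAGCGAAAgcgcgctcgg
PSME2: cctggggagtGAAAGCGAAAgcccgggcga
PSMB4: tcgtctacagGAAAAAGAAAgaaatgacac
PSMA4: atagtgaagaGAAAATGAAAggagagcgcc

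The stretch of PSMB10 is at chr16:67936852-67936881 on the minus strand, with the match 21 to 12 bases before the start. That of PSMG4 is at chr6:3258904-3258933 on the plus strand, with the match 33 to 24 bases before the start, and that of PSME2 at chr14:24146619-24146648 on the minus strand, 28 to 19 bases before the start. PSMB10 rose in high flow, PSMG4 fell in both flow conditions, and PSME2 was not called. PSMB4 (chr1:151399495-151399524, plus strand) and PSMA4 (chr15:78540155-78540184, plus strand) hold other letters at the N positions and were not called either. A match of letters is a description of the sequence and not a binding site.

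The regulatory particle subunits had negative log2 fold changes against static in most members, and 1 of 17, PSMD12 in high flow, passed the test. In low flow against static, the median log2 fold change of the 17 ATPase and non-ATPase subunits was -0.19, 15 were negative, and in 13 of 17 both low flow libraries lay below both static libraries, where 26.3% of all tested genes did. In high flow the median was -0.15, 14 were negative, and 11 of 17 lay below, where 29.4% of all tested genes did. The summed level was 2695 and 2702 CPM in static, 2504 and 2376 CPM in low flow and 2544 and 2516 CPM in high flow. All 4 flow libraries lay below both static libraries, which differed little from each other. Over all alternatives the median stayed negative, from -0.21 to -0.14 in low flow and from -0.17 to -0.11 in high flow.

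By role, the 11 non-ATPases had medians of -0.19 in low flow and -0.18 in high flow, and the 6 ATPases, which unfold the substrate, -0.11 and -0.12. PSMD12 (chromosome 17, GRCh38, 67337916 to 67366627, minus strand) had 139 and 153 CPM in static, 129 and 116 CPM in low flow and 114 and 118 CPM in high flow. All 4 flow libraries lay below both static libraries. PSMD12 fell in high flow by 0.33 on the log2 scale (SE 0.0978, adjusted p = 0.0316), and the low flow value was -0.25 (adjusted p = 0.133). The call was lost without high flow replicate 1 (adjusted p = 0.243), high flow replicate 2 (0.122) or static replicate 2 (0.237), and with length and GC offsets, where the log2 fold change was -0.19 (adjusted p = 0.137).

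The other lid subunits with the lowest values were PSMD8, with a log2 fold change of -0.31 in low flow (adjusted p = 0.0677, and 0.0442 with length and GC offsets), and PSMD7, with -0.26 in high flow (adjusted p = 0.0699). They were chosen after their values were seen. PSMD14, the deubiquitinase that removes ubiquitin chains at the entrance, had 79.3 and 79.5 CPM in static, 69.7 and 69.9 CPM in low flow and 65.1 and 68.6 CPM in high flow. Its groups did not overlap, with log2 fold changes of -0.19 in low flow and -0.25 in high flow (adjusted p = 0.236 and 0.0824). PSMD2, a base scaffold subunit, was higher in both high flow libraries than in the other 4. It had 430 and 427 CPM in static, 408 and 395 CPM in low flow and 470 and 472 CPM in high flow. In high flow against low flow its log2 fold change was 0.23 (adjusted p = 0.439), which did not pass the threshold. PSMC1 shares 4671 exon bases with NRDE2 on the opposite strand. The library kit keeps strand, and the sources used here do not give the setting used in counting, so the PSMC1 count is uncertain. PSMD2 and PSMD14 were likewise picked after their values were seen.

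**Figure D4:**
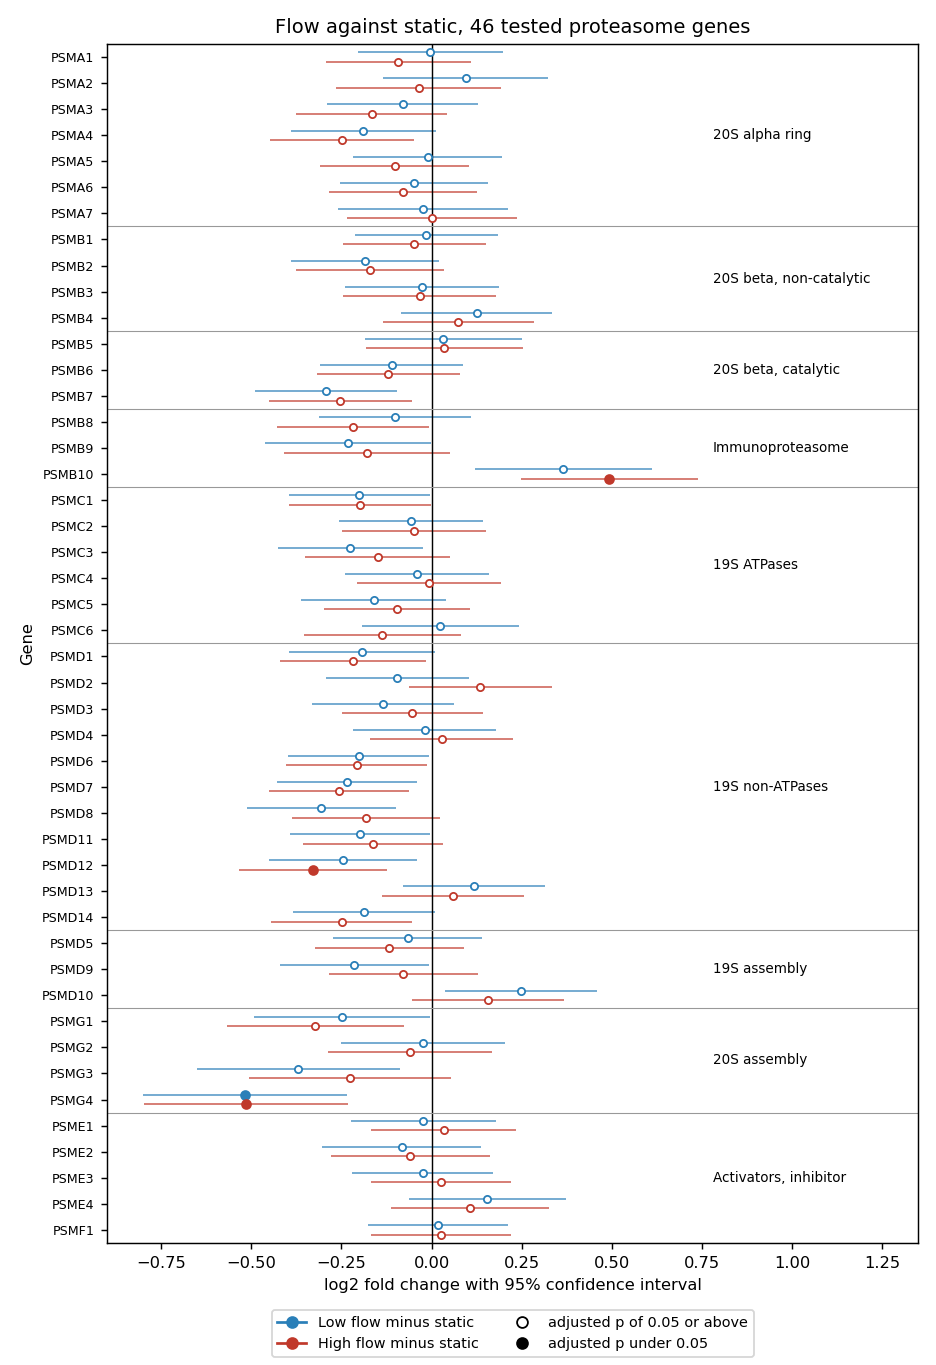
log2 fold change with 95% confidence interval of each of the 46 tested genes, low flow minus static (blue) and high flow minus static (red), by role, with filled points where the adjusted p was under 0.05. Filled points are PSMG4 in both flow conditions and PSMB10 and PSMD12 in high flow, and most regulatory particle points lie left of 0.

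All 4 core assembly chaperones had negative log2 fold changes in both flow conditions, with medians of -0.31 in low flow and -0.27 in high flow, and 1 of 4 was called in each, where 6.74% and 13.9% of all tested genes were called. PSMG4 (chromosome 6, GRCh38, 3231403 to 3303373, plus strand), which pairs with PSMG3 early in building the alpha ring, had 15.3 and 13.6 CPM in static, 10.2 and 9.95 CPM in low flow and 10.4 and 9.80 CPM in high flow, from 277 to 522 counts per library. The flow libraries lay close together and below both static ones. PSMG4 fell by 0.52 on the log2 scale in low flow (SE 0.135, adjusted p = 0.0284) and by 0.51 in high flow (SE 0.135, adjusted p = 0.0179). Between high and low flow its log2 fold change was 0.00 with a 95% confidence interval of -0.27 to 0.28.

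The calls of PSMG4 depended on single libraries. The low flow call was lost without high flow replicate 1 (adjusted p = 0.0651), high flow replicate 2 (0.0634), low flow replicate 2 (0.141), static replicate 1 (0.129) or static replicate 2 (0.0973), and the high flow call without high flow replicate 1 (0.127), high flow replicate 2 (0.13), static replicate 1 (0.0922) or static replicate 2 (0.0695). Over these fits its log2 fold change stayed between -0.60 and -0.43 in both comparisons. 1388 exon bases of PSMG4 overlap SLC22A23 on the opposite strand, which had 37 to 149 counts per library.

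PSMG3 had 25.4 and 19.5 CPM in static, 18.6 and 16.04 CPM in low flow and 19.8 and 18.5 CPM in high flow. Its log2 fold changes were -0.37 in low flow and -0.23 in high flow (adjusted p = 0.104 and 0.271). PSMG1, which works as a dimer with PSMG2, had 35.0 and 34.6 CPM in static, 32.4 and 26.1 CPM in low flow and 28.8 and 26.9 CPM in high flow, with log2 fold changes of -0.25 and -0.32 (adjusted p = 0.207 and 0.0727). With only the 4 libraries compared, PSMG1 passed the threshold in high flow (edgeR, adjusted p = 0.0334). It passed the threshold in high flow without low flow replicate 1 (adjusted p = 0.0378) or low flow replicate 2 (0.0361), and in low flow without low flow replicate 1 (0.0359), as did PSMG3 (0.025). In fits that leave 1 library in a condition, that library is assumed to vary like the other groups. PSMG2 had 35.4 and 31.9 CPM in static, 32.3 and 33.9 CPM in low flow and 30.4 and 34.1 CPM in high flow, with overlapping groups.

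Of the regulatory particle chaperones, PSMD10, also known as gankyrin, had 42.8 and 39.2 CPM in static, 47.3 and 49.98 CPM in low flow and 45.4 and 46.02 CPM in high flow. All 4 flow libraries lay above both static ones, with log2 fold changes of 0.25 in low flow and 0.16 in high flow (adjusted p = 0.141 and 0.312). With length and GC offsets PSMD10 was called in both. PSMD9 and PSMD5 had log2 fold changes of -0.21 and -0.07 in low flow and -0.08 and -0.12 in high flow, and neither was called.

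The activators and the inhibitor differed from static by little. PSME1 and PSME2, which form the interferon-inducible activator PA28 alpha-beta, had log2 fold changes of -0.02 and -0.08 in low flow and 0.03 and -0.06 in high flow. PSME1 had 116 and 106 CPM in static, 113 and 105 CPM in low flow and 116 and 111 CPM in high flow. PSME2 had 101 and 82.6 CPM in static, 88.5 and 85.0 CPM in low flow and 86.1 and 90.3 CPM in high flow. In both genes the flow libraries overlapped the static ones. PSME3, the nuclear activator PA28 gamma, had 194 and 185 CPM in static, 190 and 183 CPM in low flow and 189 and 196 CPM in high flow. PSME4, the activator PA200, had 155 and 187 CPM in static, 194 and 187 CPM in low flow and 177 and 192 CPM in high flow, with overlapping groups. PSMF1, the inhibitor PI31, had 95.9 and 96.7 CPM in static, 99.1 and 95.9 CPM in low flow and 97.8 and 98.4 CPM in high flow. The 95% confidence interval of its log2 fold change ran from -0.18 to 0.21 in low flow and from -0.17 to 0.22 in high flow.

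Between high and low flow the members' differences followed GC content. The log2 fold changes of the 46 members ranked with the GC content of their transcripts at a Spearman rho of 0.68, against 0.45 over the 19604 tested genes with a length and GC content. Genes share libraries and are not independent replicates. With offsets for length and GC the rho of the members was -0.34, and that of all these genes was 0.03. The values of individual members moved with it: PSMC6, the member with the lowest GC content, had a log2 fold change of -0.16 without offsets and 0.00 with them. PSMD2 had 0.23 without offsets and 0.16 with them (adjusted p = 0.764). The part of lane, which coincides with high flow, was not tested. In low flow against static the rho was -0.19 for the members and 0.06 over the 19604 genes. In high flow against static it was 0.16 for the members and 0.31 over the 19604 genes. Lane and high flow cannot be told apart by these values.

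**Figure D5:**
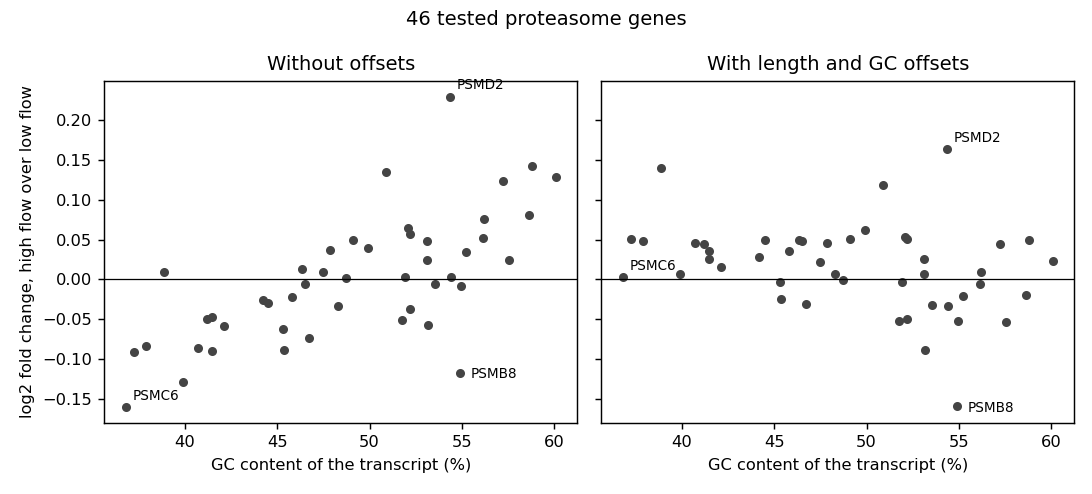
log2 fold change of high flow over low flow (y axis) against the GC content of the transcript in percent (x axis) for the 46 tested proteasome genes (points), without offsets on the left and with length and GC offsets on the right. The upward slope on the left, a rho of 0.68, becomes a rho of -0.34 on the right.

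Of 9 proteasome genes outside the symbol pattern, SEM1 fell in low flow, where 6.74% of all tested genes were called, and SEM1 and UCHL5 fell in high flow, where 13.9% were. SEM1, the smallest regulatory particle subunit, had 50.5 and 55.0 CPM in static, 39.9 and 39.9 CPM in low flow and 41.8 and 38.5 CPM in high flow. SEM1 fell by 0.40 on the log2 scale in each comparison (adjusted p = 0.0238 in low flow and 0.0153 in high flow), and the high flow call was lost with length and GC offsets (0.346). UCHL5, a deubiquitinase of the regulatory particle, had 78.6 and 92.8 CPM in static, 78.7 and 63.2 CPM in low flow and 58.7 and 63.3 CPM in high flow, and fell in high flow by 0.49 (adjusted p = 0.0107). Without static replicate 2, the adjusted p of SEM1 was 0.18 in low flow and 0.148 in high flow, and that of UCHL5 was 0.17. Without high flow replicate 1 it was 0.053 and 0.0951 for SEM1 and 0.158 for UCHL5. Without high flow replicate 2 it was 0.0517 and 0.138 for SEM1 and 0.0545 for UCHL5, and without low flow replicate 2 the low flow call of SEM1 was lost (0.118). ADRM1, a ubiquitin receptor, and POMP, the core maturation chaperone, were not called, with log2 fold changes of -0.27 and 0.13 in low flow and -0.04 and -0.04 in high flow. ADRM1 was called in low flow with length and GC offsets (adjusted p = 0.0414).

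Of 12 regulators of proteasome gene expression, BACH1 rose in low flow, and in high flow MAFK rose and NFYB fell. Of all tested genes, 6.74% were called in low flow and 13.9% in high flow. NFE2L1, which drives proteasome genes when proteasome activity is short, had 484 and 531 CPM in static, 475 and 448 CPM in low flow and 509 and 465 CPM in high flow. NFE2L2, which drives antioxidant genes, had 115 and 115 CPM in static, 115 and 102 CPM in low flow and 99.4 and 103 CPM in high flow. Neither was called in any comparison. MAFK, a small MAF partner of both, had 28.2 and 27.2 CPM in static, 33.6 and 29.8 CPM in low flow and 46.4 and 40.6 CPM in high flow, and rose in high flow by 0.65 on the log2 scale (adjusted p = 0.0015, and 0.0605 without high flow replicate 1), and by 0.41 with length and GC offsets (0.0218). BACH1, which competes with NFE2L2 for such sites, rose in low flow by 0.43 (adjusted p = 0.0247), with log2 fold changes of 0.27 to 0.57 when single libraries were left out. Its call was lost without high flow replicate 1 (0.0543), high flow replicate 2 (0.0551), low flow replicate 2 (0.356), static replicate 1 (0.0769) or static replicate 2 (0.17). NFYB, a subunit of the factor that binds CCAAT boxes, fell in high flow by 0.37 (adjusted p = 0.033), and was not called without high flow replicate 1 (0.281), high flow replicate 2 (0.0967) or static replicate 2 (0.274), or with length and GC offsets (0.132).

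In the promoter windows, the antioxidant response element core TGACNNNGC was found in 13 member genes, or 25.5% of the windows, where 10.9% of all windows held it. CCAAT was found in 19 member genes, or 37.3% of the windows, where 32% of all windows held it. The gamma-activated site TTCNNNGAA was found in 7, or 13.7% of the windows, where 6.57% of all windows held it. All were searched on both strands. PSMD12, the called regulatory particle gene, holds the antioxidant core 165 to 157 bases before its start, and is shown for that reason (chr17:67366723-67366752, minus strand, match in capitals).
PSMD12: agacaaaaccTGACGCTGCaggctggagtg

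Upstream of the proteasome, 0 of 6 ubiquitin genes and activating enzymes were called in either flow condition by edgeR, where 6.74% and 13.9% of all tested genes were. At an unadjusted p under 0.05 the count was 0 in low flow, against 23.5% of all tested genes, and 1 in high flow, against 29.4%, the ubiquitin-activating enzyme UBA1. DESeq2 called 0 in low flow and the same 1 in high flow, at an adjusted p of 0.0405 and a log2 fold change of 0.26. Of 14 shuttle factors and genes of the VCP complex, ZFAND5 rose in both flow conditions and UFD1 fell in high flow. ZFAND5, a zinc finger protein that binds the proteasome and stimulates degradation, had 196 and 179 CPM in static, 260 and 293 CPM in low flow and 260 and 278 CPM in high flow. Both flow groups lay above static without overlap. ZFAND5 rose by 0.56 on the log2 scale in low flow (adjusted p = 0.00506, and 0.0774 without static replicate 2) and by 0.52 in high flow (adjusted p = 0.00331, and 0.0651 without static replicate 2 or 0.0529 without high flow replicate 2). UFD1, a cofactor of VCP, fell in high flow by 0.31 (adjusted p = 0.0443), and its adjusted p was 0.13 to 0.228 without either static or either high flow library and 0.12 with length and GC offsets.

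Of the 12 antigen processing genes that interferon induces with the immunoproteasome, IRF1 rose in both flow conditions, and TAP2 and ERAP2 fell in high flow. The share called among all tested genes was 6.74% in low flow and 13.9% in high flow. IRF1, a transcription factor of interferon responses, had 64.6 and 56.1 CPM in static, 94.5 and 81.9 CPM in low flow and 92.8 and 94.9 CPM in high flow. IRF1 rose by 0.55 on the log2 scale in low flow (adjusted p = 0.00681, and 0.105 without static replicate 2) and by 0.64 in high flow (adjusted p = 0.00108), a call that held when each library was left out. TAP2, a chain of the peptide transporter, fell in high flow by 0.31 (adjusted p = 0.0498), and ERAP2, a peptidase that trims peptides, fell by 0.48 (adjusted p = 0.0281). TAP2 was not called without high flow replicate 1 (0.247), high flow replicate 2 (0.198), static replicate 1 (0.137) or static replicate 2 (0.169), and ERAP2 not without high flow replicate 1 (0.332, log2 fold change -0.32), static replicate 1 (0.183) or static replicate 2 (0.0716), or with length and GC offsets (0.073). The median of the 12 was -0.02 in low flow and 0.01 in high flow, so PSMB10 and IRF1 were higher while the list as a whole lay near 0.

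Related multi-subunit complexes were set beside the proteasome. Of the 10 subunits of the COP9 signalosome, whose subunits resemble the regulatory particle lid, COPS3 fell in high flow by 0.36 on the log2 scale (adjusted p = 0.0237). Its call was lost without high flow replicate 1 (0.252), high flow replicate 2 (0.0777) or static replicate 2 (0.173), and with length and GC offsets (0.101, log2 fold change -0.22). In 3 of 10 both low flow libraries lay below both static ones, where 26.3% of all tested genes did. In 4 of 10 both high flow libraries lay below, where 29.4% of all tested genes did. By edgeR, 0 of the 10 were called in low flow and 1 in high flow, where 6.74% and 13.9% of all tested genes were. DESeq2 called COPS3 in both (adjusted p = 0.0396 in low flow and 0.00984 in high flow). Of the 8 subunits of the TRiC chaperonin, which folds newly made proteins, all 8 lay below both static libraries in both flow conditions, beside the same 26.3% and 29.4% of all tested genes, with medians of -0.27 in low flow and -0.25 in high flow. CCT5 and CCT8 fell in high flow by 0.34 and 0.31 (adjusted p = 0.0389 and 0.0393). Without high flow replicate 1 these were 0.262 and 0.304, without high flow replicate 2 they were 0.148 and 0.108, without static replicate 2 they were 0.252 and 0.143, and CCT8 was also lost without static replicate 1 (0.104). With length and GC offsets neither was called (0.0638 for CCT5, and 0.157 for CCT8 with a log2 fold change of -0.17). The TRiC medians were thus lower than those of the regulatory particle, -0.19 and -0.15, and the difference between the lists was not tested.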

How the data were processed

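Libraries were made from poly(A) RNA with a stranded kit, per the labels' protocols. The authors deposited raw counts per gene symbol, 1 column per library, made with STAR and featureCounts on hg38, per the submitters' processing notes, which give no versions. Columns were matched to samples by the column names in the labels. Genes were tested with edgeR 4.0.16 (R 4.3.3): TMM normalization, filterByExpr at a minimum count of 10, robust quasi-likelihood fit of all 6 libraries with 3 residual degrees of freedom, and Benjamini-Hochberg adjustment over 20676 genes in each of 3 comparisons. The fit was tested on simulated data. CPM values were computed here from the counts with TMM-scaled library sizes. SE values came from the test statistic. A CPM from few counts carries counting error and the shallowest static library limits the precision for low genes. Transcript length, GC content and positions came from GENCODE 29, and promoters from RefSeq.

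Members and lists were chosen with earlier results of these data known. Values are given for called members, catalytic, immunoproteasome, activator, inhibitor and core chaperone genes, the extremes of level per length, up to 4 called genes of each other list per comparison, and NFE2L1, NFE2L2, POMP and ADRM1. 1 other gene of the rule is not reported here. Other named genes were chosen after their values were seen. Alternatives were RLE normalization, total library size, DESeq2 1.42.0, no filter, only the 4 libraries compared, a replicate block, length and GC offsets (mgcv 1.9.3) and leaving out each library. The 2 libraries of a condition were not copies: their counts differed beyond sampling noise.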

Additional observations from a re-analysis of the deposited data

How the results depend on the processing

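No called member or list gene changed sign under any alternative run, while the near-zero medians of the 20S core did, as given above. Counts of calls moved most. In low flow against static, 1394 genes were called, and 2260 with no expression filter, 604 with only the 4 libraries compared and 95 to 3111 when each library was left out. There, 1 member was called, and 3 by DESeq2, 2 with no expression filter, 0 with only the 4 libraries compared, 4 with length and GC offsets and 0 to 5 when each library was left out. In high flow against static, 2878 genes were called, and 1877 with length and GC offsets and 300 to 4004 when each library was left out, with 0 to 4 members called against 3. In high flow against low flow, 69 genes were called, and 114 by DESeq2, 241 with no expression filter, 36 with only the 4 libraries compared, 40 with length and GC offsets and 4 to 294 when each library was left out. The median of the members ran from -0.13 to -0.057 in low flow and from -0.14 to -0.046 in high flow against static when each library was left out, was -0.041 in low flow and -0.025 in high flow with length and GC offsets, was -0.053 in low flow with no expression filter, and was -0.044 in high flow against low flow with total library sizes. The causes were not tested. A fit with fewer libraries has fewer residual degrees of freedom, and the part of this in the moved counts was not tested either. Where leaving out 1 library left a condition with 1, that library was assumed to vary like the other groups.

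The labels do not say whether same-numbered libraries were paired. Over all tested genes, differences between replicate 1 and replicate 2 correlated at -0.20 for static and low flow. For static and high flow the correlation was -0.02, and for low and high flow it was 0.12. Over the members the same correlations were -0.38, 0.04 and 0.44. With 2 libraries per condition, these values cannot settle whether the libraries were paired. With the replicate block, low flow against static gave 907 genes and 0 members. PSMG4 in low flow (adjusted p = 0.0501) was not called with the block. Nor, in high flow, were PSMD12 (0.0512), NFYB (0.052), UFD1 (0.056), ERAP2 (0.0538), TAP2 (0.062), CCT5 (0.0735) and CCT8 (0.0628). The block changed no other edgeR call printed for the members and the other gene lists. The call of AC040162.1 was not followed over the alternatives. With only the 4 libraries compared, PSMG4 (0.0636), SEM1 (0.0553) and BACH1 (0.062) were not called in low flow. With no expression filter, UFD1 (0.101), TAP2 (0.0715) and CCT8 (0.0759) were not called in high flow. With the static numbers crossed, an alternative chosen after seeing the data, low flow against static gave 2229 genes and 4 members.

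The static libraries had the fewest counts. At 277 counts in 1 static library, PSMG4 was the least deeply counted tested member.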

Other observations

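Of 35 rows named as pseudogenes of the proteasome genes, PSMC1P1 had the most counts, with 56 and 70 in static, 145 and 144 in low flow and 161 and 282 in high flow, and PSMD10P2 followed with 24 and 24 in static, 54 and 80 in low flow and 38 and 55 in high flow. Every other such row had at most 22 counts in a library. PSMG3-AS1, which shares 60 exon bases with PSMG3 on the opposite strand, had 30 and 41 counts in static, 87 and 124 in low flow and 138 and 167 in high flow. Its log2 fold change in high flow against static was 0.88 (edgeR, adjusted p = 0.0237), while PSMG3 had -0.23. MRPL32, a mitochondrial ribosomal protein gene that starts beside PSMA2 on the opposite strand and shares 24 exon bases with it, fell in both flow conditions, by 0.51 on the log2 scale in low flow (edgeR, adjusted p = 0.0102) and by 0.59 in high flow (0.00214), while PSMA2 was not called. These genes were chosen after their values were seen.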
